A study of Homo sapiens with 6 samples.

Results

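The 33 genes described here encode the enzymes of glycolysis, the carriers that bring glucose in and take lactate out, and a set of transcripts best known for their response to low oxygen. They were taken by gene symbol from a written list, whose rule uses no expression value, although the list was drawn up with earlier results of these data known. All 33 symbols were found among the 25368 of each of the 2 expression tables. By role, 2 genes take up glucose, 3 act at hexokinase and glucose phosphate isomerase, 5 at phosphofructokinase, 8 from aldolase to enolase, 7 in pyruvate and lactate handling, and 8 are other genes of the hypoxia response.

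Glycolysis splits glucose into pyruvate in the cytosol, and lactate dehydrogenase turns pyruvate into lactate, which leaves the cell through monocarboxylate transporters. Many of these genes are targets of HIF-1, a dimer of HIF1A and ARNT that binds the hypoxia response element when oxygen is low, because the prolyl hydroxylases that mark HIF1A for destruction need oxygen. Cancer-associated fibroblasts (CAFs) have been described as glycolytic cells that can supply lactate to tumor cells.

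RNA was sequenced from MRC5, a line of human embryonic lung fibroblasts immortalized with hTERT, in 6 conditions with 1 library each. In the JUN overexpression table, the cells of all 3 libraries carried an adenovirus, which held an empty vector (control), FLAG-tagged wild-type JUN (JUN WT) or JUN with both JNK-phosphorylated serines replaced by alanine (JUN AA). In the JNKi table, MRC5 received no treatment, induced CAFs (iCAFs) were MRC5 kept for 7 days in medium conditioned by MDA-MB-231 breast cancer cells, and iCAFs+JNKi were iCAFs that also received 1 µM of the JNK inhibitor JNK-IN-8 for 48 h, for which the protocol names DMSO as vehicle. The label of the iCAF library does not say whether it received the vehicle. The design asks what JUN and its phosphorylation change in a fibroblast, and which changes of the induced state need JNK. No treatment with low oxygen is named in the sources used here. The conditioned medium was collected without serum while MRC5 was maintained with serum, so medium and tumor cell factors cannot be told apart.

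With 1 library per condition, differences cannot be checked against replicates and carry no p-value. Expression is in FPKM, fragment counts divided by exon length and by the total mapped in that library, and a change is a difference of log2(FPKM + 1) within a table, a scale that understates the change of low genes. A change of at least 1 on this scale is called 2-fold. JUN itself was at 25.5 FPKM for control, 4543 for JUN WT and 291 for JUN AA, and at 57.1, 55.3 and 21.1 FPKM in MRC5, iCAFs and iCAFs+JNKi. JUN mRNA thus differed 15.6-fold between JUN WT and JUN AA, so dose and phosphorylation sites cannot be told apart in that comparison. The 8 fibroblast markers summed to between 3983 and 6242 FPKM with none at 0. The 5 epithelial markers summed to between 6.45 and 20.3 FPKM, most of it KRT8, with CDH1 at 0 in all 6 libraries. The 4 leukocyte markers summed to between 31.2 and 86.0 FPKM, nearly all of it CD68, which was highest in JUN WT at 85.7 FPKM with CD3E at 0 in all 6 libraries, and the 3 endothelial markers did not exceed 0.310 FPKM in sum. The part of these markers in the results was not tested. In such bulk RNA, fewer cells of a type and less RNA per cell cannot be told apart. The FPKM of all genes summed to 494604, 498515 and 613185 in control, JUN WT and JUN AA, and to 399535, 393524 and 359947 in MRC5, iCAFs and iCAFs+JNKi. The number of reads is unknown.

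Glycolytic transcripts were among the most abundant of these fibroblasts. GAPDH, which oxidizes glyceraldehyde 3-phosphate, reached 6560 FPKM for control, 5150 for JUN WT and 6674 for JUN AA, and 2855 FPKM for MRC5, 3506 for iCAFs and 2050 for iCAFs+JNKi. It ranked between 3 and 6 among all genes of a library. GAPDH, PKM, ALDOA, TPI1 and ENO1 were the 5 highest members in each library, in an order that varied. The 19 enzymes from hexokinase to lactate dehydrogenase, the phosphofructokinase-2 genes included, summed to 11879 FPKM for control, 10856 for JUN WT and 13252 for JUN AA, which is 2.40%, 2.18% and 2.16% of all FPKM. In the JNKi table their sum was 7069 FPKM for MRC5, 7939 for iCAFs and 5296 for iCAFs+JNKi, or 1.77%, 2.02% and 1.47% of all FPKM. Within that table, the inhibitor library held the lowest sum and the lowest share. GAPDH was the largest single part of each of these sums, and sums without GAPDH were not computed. Between control and JUN WT, 5 of the 8 aldolase to enolase genes were higher and 3, GAPDH among them, were lower. GAPDH has 65 named pseudogenes in the annotation used, BNIP3 44 and PGAM1 13, so the level of these genes depends on how the authors' counting divided shared reads.

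At the other end, EGLN3, CA9 and PDK3 did not reach a mean of 1 FPKM in either table. EGLN3, an oxygen-sensing prolyl hydroxylase, was listed at 0 in JUN WT, JUN AA, MRC5 and iCAFs and did not exceed 0.10 FPKM in the others. CA9, a carbonic anhydrase often used as a marker of hypoxia, was listed at 0 in MRC5 and lay between 0.15 and 0.50 FPKM in the other 5 libraries. PDK3, a pyruvate dehydrogenase kinase, stayed between 0.05 and 0.45 FPKM. ANKRD37, an ankyrin repeat gene induced by HIF-1, was at 2.17, 1.53 and 2.13 FPKM in control, JUN WT and JUN AA but at 0.34, 0.67 and 0.28 FPKM in the JNKi table. Thus the filter left 30 members with JUN overexpression and 29 in the JNKi table. None of them passed through a single high library, as 0 had any library under 1 FPKM, and their lowest values were 1.53 FPKM with JUN overexpression and 4.66 FPKM in the JNKi table.

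**Figure D1:**
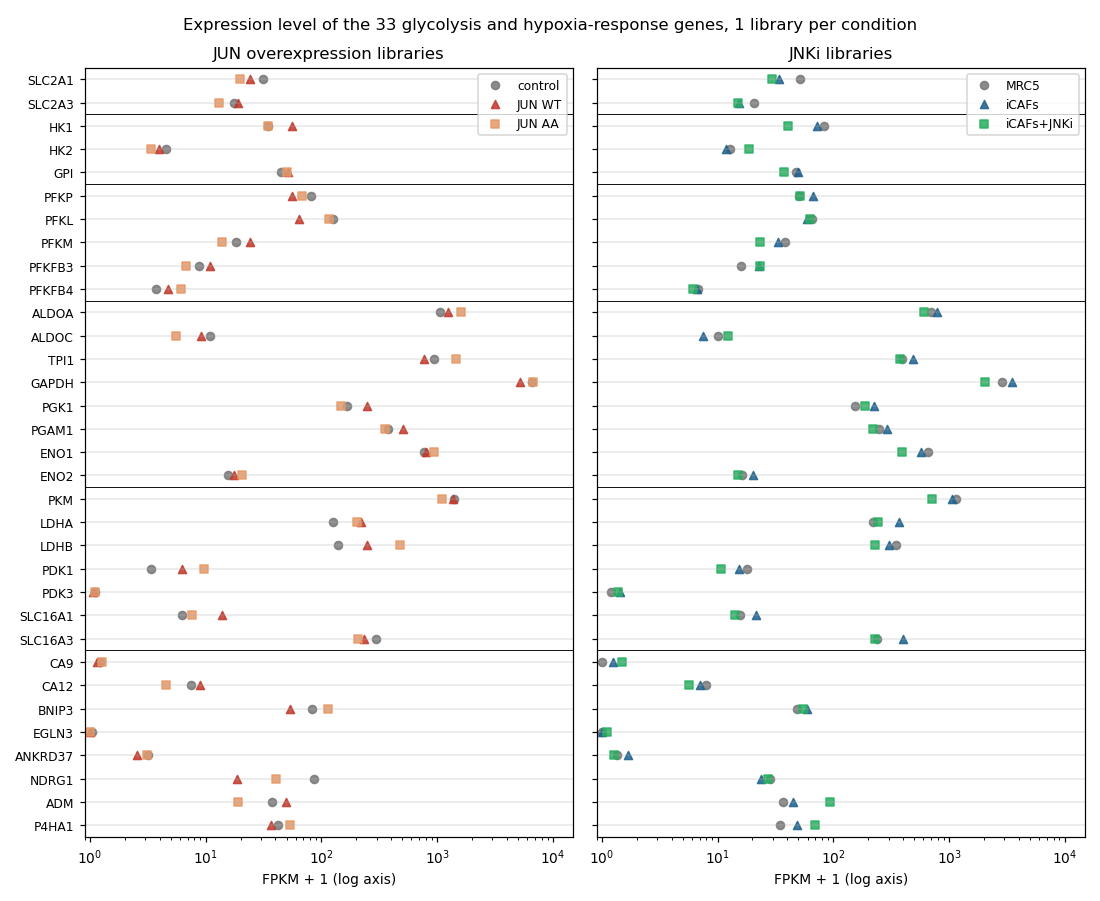
Level of each of the 33 genes as FPKM + 1 on a log axis, with 1 point per library, for the JUN overexpression table (left) and the JNKi table (right), grouped by role. GAPDH lies highest in every library, EGLN3, CA9 and PDK3 lie near the left edge, and ADM in iCAFs+JNKi (93.4 FPKM) stands to the right of MRC5 and iCAFs.

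JUN WT cells had more SLC16A1 and less NDRG1 than control cells. SLC16A1, the lactate transporter MCT1, was at least 2-fold higher, and NDRG1, a stress-induced gene of the hypoxia response, was at least 2-fold lower. They were 1 of 30 members in each direction, where 6.92% of all 10311 genes were 2-fold higher and 3.39% were 2-fold lower. The remaining 28 members stayed within 2-fold. Below control by any amount lay 13 of 30, against 39.1% of all genes, and the median change of the members was 0.15, the same to 2 decimals as the median of all genes. Among roles, the pyruvate and lactate genes had a median of 0.83 and the hypoxia response genes a median of -0.26. Role medians were not recomputed with the alternatives in processing given at the end.

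JUN AA cells had more LDHB and PDK1 and less NDRG1 than the same control library. LDHB and PDK1 were the 2 members of 30 at least 2-fold higher, where 5.29% of all genes were, and NDRG1 was the 1 member at least 2-fold lower, where 3.77% of all genes were. Below control lay 16 of 30 members, with 51.4% of all genes. The median change of the members was -0.05 and that of all genes -0.02. With the FPKM of each library rescaled to the same sum, the median of all genes moved to -0.29 and the split of the members from 2 higher and 1 lower to 2 higher and 4 lower, since JUN AA had the largest sum. With trends of transcript length and GC content removed, NDRG1 in JUN AA was at -0.77, still below control but within 2-fold.

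Set directly against JUN AA, JUN WT had more ADM and less BNIP3 and NDRG1. ADM was the 1 member of 30 at least 2-fold higher, where 6.65% of all genes were. BNIP3 and NDRG1 were the 2 members at least 2-fold lower, where 5.61% of all genes were. Lower in JUN WT by any amount were 14 of 30 members and 37.5% of all genes, and the medians were 0.08 for the members and 0.18 for all genes. After rescaling to the same sum, 7 members were 2-fold higher and 0 were 2-fold lower, with an all-gene median of 0.47, so the direction of small differences between JUN WT and JUN AA depends on the scaling.

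Against MRC5, iCAFs had 0 of 29 members changed by 2-fold or more in either direction. For comparison, 1.94% of all 11780 genes were 2-fold higher and 1.71% were 2-fold lower. The members ranged from -0.62 for SLC2A1, the glucose transporter GLUT1, to 0.75 for LDHA, the lactate dehydrogenase subunit best known from glycolytic cells. Below MRC5 lay 14 of 29 members, against 59.4% of all genes, and the median change was 0.06 for the members and -0.06 for all genes.

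After JNK inhibition of iCAFs, most glycolytic transcripts were lower by less than 2-fold, while ADM was higher. ADM, the vasodilator peptide adrenomedullin, was the 1 member of 29 at least 2-fold higher, where 2.25% of all genes were, and 0 members were 2-fold lower, where 1.97% of all genes were. Lower by any amount were 22 of 29 members, against 62.6% of all genes. The median change of the members was -0.37 with quartiles of -0.53 and -0.04, and the median of all genes was -0.10. Split by role, 20 of the 24 members of glycolysis, transport and pyruvate handling were lower, with a median of -0.39, whereas 3 of the 5 measured hypoxia response genes were higher, with a median of 0.19. The pyruvate and lactate genes were lower in 6 of 6 cases with a median of -0.60, and the aldolase to enolase genes in 7 of 8 cases with a median of -0.38. The 8 fibroblast markers summed to 5571 FPKM for MRC5, 3983 for iCAFs and 6149 for iCAFs+JNKi, with none at 0, and their part in the result was not tested. These markers did not shift evenly with the inhibitor. VIM was lower, at 1655 FPKM for iCAFs and 1209 for iCAFs+JNKi. The others were higher, from 1.21 times iCAFs for THY1 to 6.39 times for COL3A1. The comparisons of iCAFs with MRC5 and with iCAFs+JNKi share the iCAF library, and those of JUN WT and JUN AA with control share the control library.

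**Figure D2:**
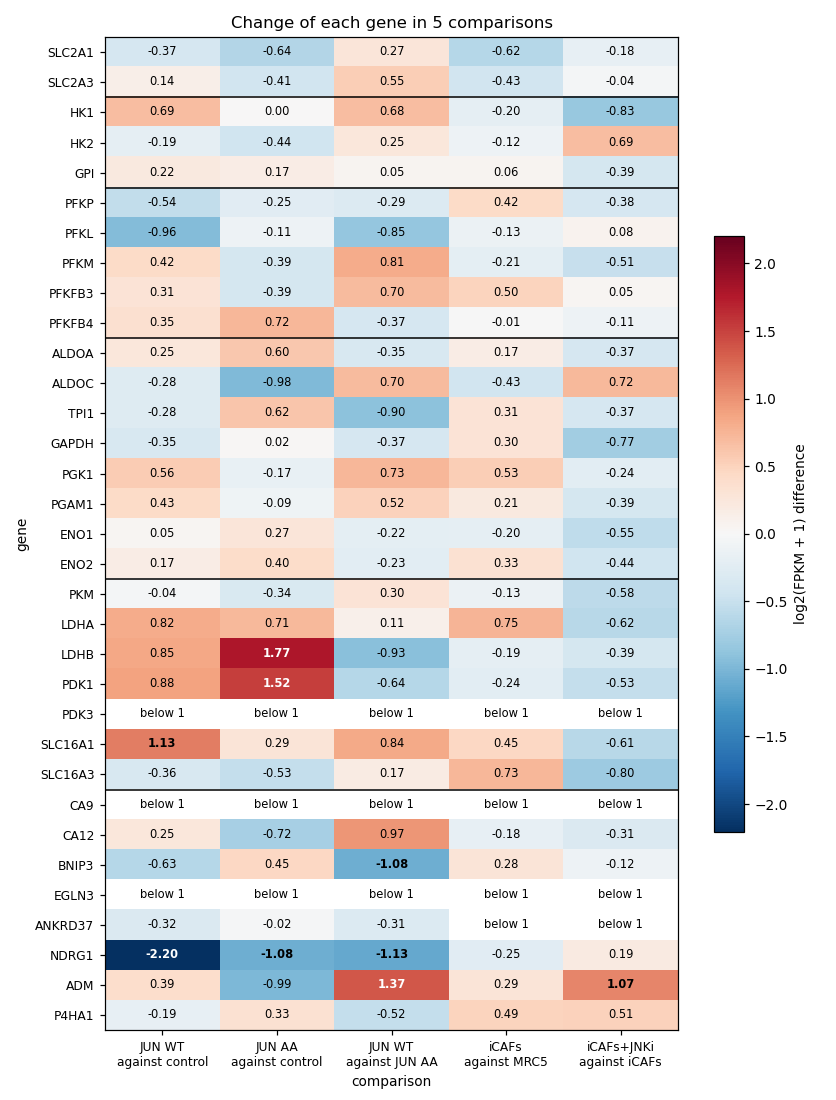
Change of each gene, as a log2(FPKM + 1) difference, in 5 comparisons, with color and number giving the value, values of at least 1 in size in bold, and genes under a mean of 1 FPKM left white. NDRG1 is at -2.20 for JUN WT and at -1.08 for JUN AA, and the last column is mostly blue, with 22 of 29 members lower after JNK inhibition and ADM at 1.07.

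**Figure D3:**
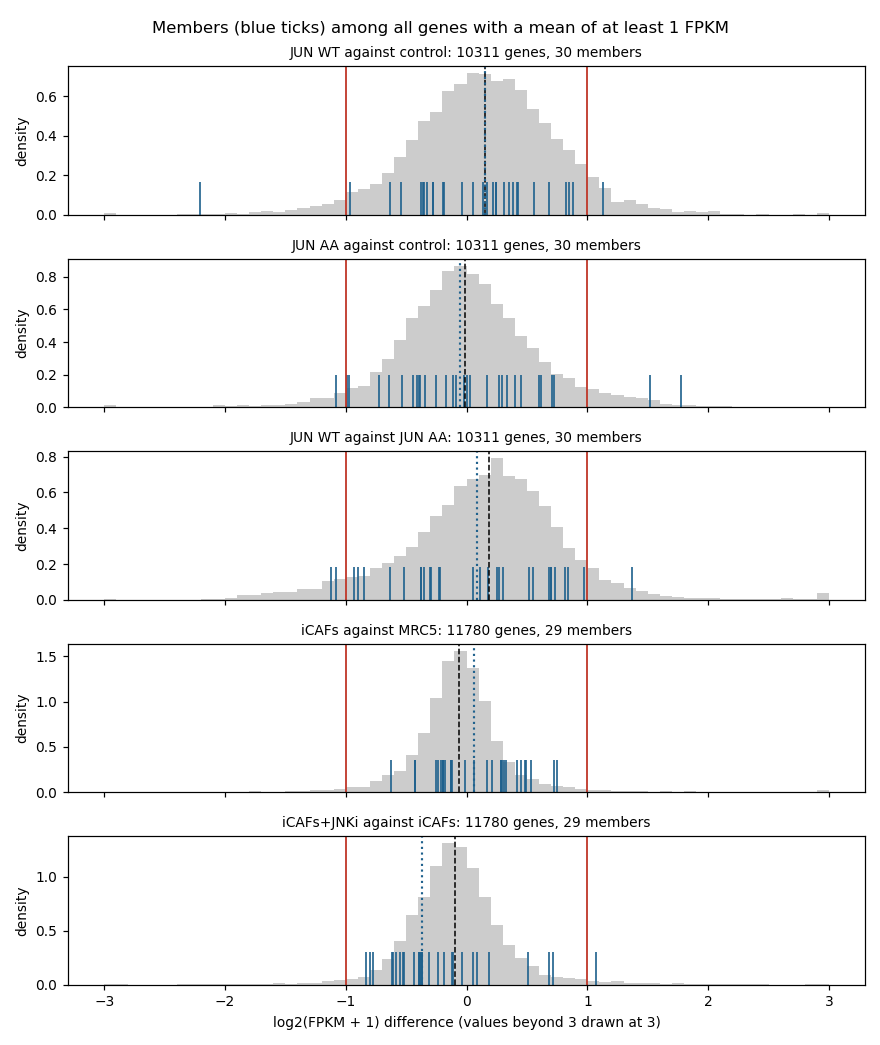
Members (blue ticks, with their median as a blue dotted line) against the distribution of all genes that passed the filter (grey, with a black dashed median) in 5 comparisons. Red lines mark a 2-fold change, the vertical axis is density, and values beyond 3 are drawn at 3. The members' median lies at -0.37 against -0.10 for all genes after JNK inhibition and coincides with that of all genes for JUN WT.

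Glucose uptake transcripts were lower in JUN AA than in control, and lower in iCAFs than in MRC5, in each case by less than 2-fold. SLC2A1 was at 30.0 FPKM for control, 23.0 for JUN WT and 18.9 for JUN AA, and at 50.9 FPKM for MRC5, 32.7 for iCAFs and 28.6 for iCAFs+JNKi. The untreated or control library was the highest of each table, with changes of -0.64 in JUN AA and -0.62 in iCAFs. SLC2A3, the high-affinity carrier GLUT3, was at 16.4, 18.2 and 12.1 FPKM in control, JUN WT and JUN AA, and at 19.5, 14.3 and 13.9 FPKM in MRC5, iCAFs and iCAFs+JNKi. JUN AA was again the lowest library of its table and MRC5 the highest of the other. SLC2A3 supplied 35.4%, 44.2% and 39.0% of the summed FPKM of both carriers in the JUN overexpression table, and 27.7%, 30.4% and 32.6% in the JNKi table.

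At the hexokinase step, which traps glucose as glucose 6-phosphate, the isoenzymes lay on opposite sides of iCAFs after JNK inhibition. HK1, the housekeeping form, was at 81.8 FPKM for MRC5, 71.2 for iCAFs and 39.6 for iCAFs+JNKi. HK2, the inducible form and a HIF-1 target, was at 11.7 FPKM for MRC5, 10.7 for iCAFs and 17.9 for iCAFs+JNKi. HK1 differed by -0.83 and HK2 by 0.69 with the inhibitor, neither reaching 2-fold, so the HK2 share of both was 12.5% for MRC5, 13.1% for iCAFs and 31.1% for iCAFs+JNKi. A share within a library does not depend on how the library was scaled. JUN WT had the highest HK1 of its table, which was at 33.5 FPKM for control, 54.5 for JUN WT and 33.6 for JUN AA, and the HK2 share was 9.52%, 5.15% and 6.50%. HK2 itself lay between 2.34 and 3.53 FPKM there. GPI, the isomerase that follows, varied little, between 43.4 and 50.8 FPKM in the JUN overexpression table and between 36.7 and 48.4 FPKM in the JNKi table.

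Phosphofructokinase, the committed step of glycolysis, is built from the platelet, liver and muscle subunits PFKP, PFKL and PFKM. PFKL was at 124 FPKM for control, 63.1 for JUN WT and 115 for JUN AA, and its change of -0.96 in JUN WT lies just inside the 2-fold limit. PFKM went the other way, with 17.2, 23.4 and 12.9 FPKM. The PFKM share of the 3 subunits was thus 7.78% for control, 16.5% for JUN WT and 6.60% for JUN AA, highest in JUN WT. With trends of transcript length and GC content removed, the PFKM change in JUN WT was 0.05 in place of 0.42. Shares were not recomputed in this way. PFKP lay between 54.7 and 80.2 FPKM in that table, highest in control. In the JNKi table the PFKM share was 24.8% for MRC5, 20.5% for iCAFs and 16.4% for iCAFs+JNKi, with PFKM at 37.5, 32.2 and 22.3 FPKM, PFKL between 58.8 and 64.6 FPKM and PFKP between 49.4 and 66.4 FPKM.

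PFKFB3 and PFKFB4 make and degrade fructose 2,6-bisphosphate, the strongest activator of phosphofructokinase. PFKFB3 was at 15.0 FPKM for MRC5, 21.6 for iCAFs and 22.4 for iCAFs+JNKi, and at 7.77, 9.86 and 5.70 FPKM in control, JUN WT and JUN AA. PFKFB4 was at 2.72, 3.75 and 5.15 FPKM in control, JUN WT and JUN AA, and between 5.18 and 5.73 FPKM in the JNKi table. JUN AA had the least PFKFB3 and the most PFKFB4 of its table, and the PFKFB3 share of both was 74.1% for control, 72.5% for JUN WT and 52.6% for JUN AA. PFKFB4 shares exon bases on its strand with UCN2 in the annotation.

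From aldolase to enolase, the abundant isoenzymes were lower in iCAFs+JNKi than in iCAFs, each by less than 2-fold. GAPDH differed by -0.77, ENO1 by -0.55, PGAM1 by -0.39, ALDOA and TPI1 by -0.37 and PGK1 by -0.24. ALDOA, the main aldolase, was at 702 FPKM for MRC5, 788 for iCAFs and 610 for iCAFs+JNKi. PGK1, which makes ATP in the step after GAPDH, had 153, 223 and 189 FPKM in these libraries. Their highest library was iCAFs, which held also for TPI1, GAPDH and PGAM1, whereas ENO1 was highest in MRC5, with 657, 574 and 391 FPKM in MRC5, iCAFs and iCAFs+JNKi. ALDOC, the minor aldolase, was the exception after JNK inhibition, at 9.0 FPKM for MRC5, 6.42 for iCAFs and 11.2 for iCAFs+JNKi, a change of 0.72. ENO2, known as neuronal enolase, was at 15.2, 19.4 and 14.0 FPKM and supplied 2.26%, 3.26% and 3.46% of enolase FPKM.

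JUN WT and JUN AA lay on opposite sides of control at TPI1 and PGK1, in each case by less than 2-fold. TPI1, triosephosphate isomerase, was at 939 FPKM for control, 773 for JUN WT and 1442 for JUN AA. PGK1 was at 166, 246 and 147 FPKM and PGAM1, phosphoglycerate mutase, at 379, 509 and 356 FPKM, in the order of control, JUN WT and JUN AA. TPI1 was highest in JUN AA, and PGK1 and PGAM1 were highest in JUN WT. The JUN AA change of PGAM1 was -0.09 and turned to 0.11 with trends of length and GC content removed. With the same trends removed, the JUN WT change of PGK1 was 0.08 in place of 0.56. ALDOA was at 1056 FPKM for control, 1252 for JUN WT and 1597 for JUN AA. ALDOC was at 9.96, 8.05 and 4.57 FPKM, so its FPKM in JUN AA was 0.459 times that in control while the log2(FPKM + 1) difference was -0.98, just short of 2-fold. ENO1 ranged from 773 to 933 FPKM and ENO2 from 14.6 to 19.6 FPKM, with control lowest and JUN AA highest for both. PGK1 shares exon bases with ATP7A on the same strand in the annotation.

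Lactate dehydrogenase transcripts differed in level and in isoenzyme make-up. LDHB, the subunit that favours lactate oxidation, was at 138 FPKM for control, 249 for JUN WT and 475 for JUN AA, 3.44 times control in JUN AA with a change of 1.77. LDHA was at 124 FPKM for control, 220 for JUN WT and 204 for JUN AA, a change of 0.82 in JUN WT and 0.71 in JUN AA. Both JUN libraries lay above control for both genes, and the sum of LDHA and LDHB was 262, 469 and 679 FPKM. With trends of transcript length and GC content removed, the changes in JUN WT were 0.40 for LDHA and 0.42 for LDHB. In JUN AA they were then 0.54 and 1.55. The LDHA share was nearly equal in control and JUN WT, at 47.3% and 46.9%, and was 30.0% in JUN AA. In the JNKi table LDHA was at 221 FPKM for MRC5, 372 for iCAFs and 242 for iCAFs+JNKi, while LDHB was at 345, 302 and 229 FPKM. LDHA was highest in iCAFs and LDHB was highest in MRC5. The LDHA share was 39.1% for MRC5, 55.2% for iCAFs and 51.4% for iCAFs+JNKi, so the level of LDHA was lower after the inhibitor while its share stayed above that of MRC5. In the annotation used, LDHB spans chr12:21788276-21910791 of GRCh37 on the minus strand, which reaches upstream of the RefSeq start used for its promoter below.

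**Figure D4:**
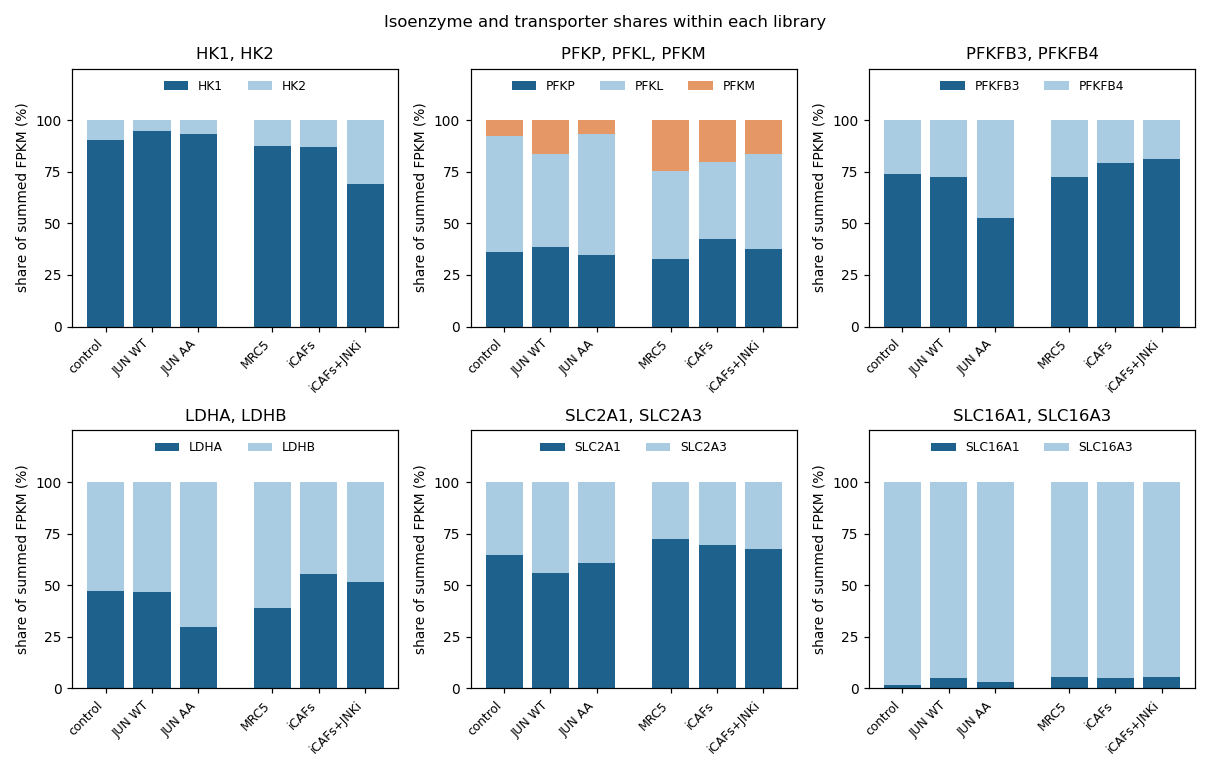
Share of each isoenzyme or carrier in the summed FPKM of its family, in percent, for 6 families and 6 libraries with 1 library per bar. The HK2 share is 31.1% in iCAFs+JNKi against at most 13.1% elsewhere, and the LDHA share is lowest in JUN AA (30.0%) and highest in iCAFs (55.2%).

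PKM, the pyruvate kinase that ends glycolysis, was at 1408 FPKM for control, 1370 for JUN WT and 1109 for JUN AA, and at 1157 FPKM for MRC5, 1058 for iCAFs and 706 for iCAFs+JNKi. Values per gene do not separate its M1 and M2 splice forms. PDK1, a HIF-1 target that restrains pyruvate oxidation by inhibiting pyruvate dehydrogenase, was at 2.39 FPKM for control, 5.25 for JUN WT and 8.72 for JUN AA. Its FPKM was 2.20 times control in JUN WT, where the log2(FPKM + 1) difference was 0.88 and below 2-fold, and 3.66 times control in JUN AA, with a difference of 1.52. In the JNKi table PDK1 was at 17.1 FPKM for MRC5, 14.3 for iCAFs and 9.65 for iCAFs+JNKi, lowest with the inhibitor.

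Lactate carriers were highest in iCAFs within the JNKi table. SLC16A3, the lactate exporter MCT4 and a HIF-1 target, was at 240 FPKM for MRC5, 397 for iCAFs and 228 for iCAFs+JNKi, changes of 0.73 and -0.80. SLC16A1 was at 14.7, 20.5 and 13.1 FPKM in these libraries. At LDHA, SLC16A1 and SLC16A3, iCAFs+JNKi lay closer to MRC5 than to iCAFs. In the JUN overexpression table SLC16A1 was at 5.26 FPKM for control, 12.7 for JUN WT and 6.66 for JUN AA, 2.42 times control in JUN WT with a change of 1.13. SLC16A3 was at 297, 232 and 205 FPKM there, highest in control. SLC16A1 supplied between 1.74% and 5.78% of the FPKM of both carriers in the 6 libraries. SLC16A1 and SLC16A3 share exon bases on the opposite strand with SLC16A1-AS1 and CSNK1D, and the sources used here do not state whether reads were counted by strand. Centring on the median gene, or removing trends with length and GC content, gave 0.98 and 0.69 for SLC16A1 in JUN WT, in each case short of 2-fold.

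Among the other genes of the hypoxia response, NDRG1 and ADM differed most. NDRG1, on the minus strand of chromosome 8 from 134249418 to 134314265 in GRCh37, was at 84.7 FPKM for control, 17.6 for JUN WT and 39.6 for JUN AA. Both JUN libraries lay far below control, at 0.208 and 0.467 times its FPKM, with changes of -2.20 and -1.08. NDRG1 stayed between 22.9 and 27.5 FPKM in the JNKi table. ADM was at 36.5 FPKM for control, 48.1 for JUN WT and 17.9 for JUN AA, a change of -0.99 in JUN AA that lies just inside the 2-fold limit and of 1.37 between JUN WT and JUN AA. In the JNKi table ADM was at 35.9 FPKM for MRC5, 44 for iCAFs and 93.4 for iCAFs+JNKi, 2.12 times iCAFs with the inhibitor. Thus the library with the inhibitor was the highest of its table and the JUN AA library the lowest of its own.

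BNIP3, a mitochondrial protein of mitophagy, was at 82.1 FPKM for control, 52.6 for JUN WT and 112 for JUN AA, and between 47.6 and 58.0 FPKM in the JNKi table. JUN WT was lowest and JUN AA highest, with a difference of -1.08 between them. P4HA1, a subunit of the collagen prolyl hydroxylase, was at 33.6 FPKM for MRC5, 47.5 for iCAFs and 68 for iCAFs+JNKi, changes of 0.49 and 0.51, and between 36.0 and 52.0 FPKM with JUN. CA12, a membrane carbonic anhydrase, was at 6.45, 7.85 and 3.51 FPKM in control, JUN WT and JUN AA and between 4.66 and 6.95 FPKM in the JNKi table. Its difference of 0.97 between JUN WT and JUN AA was just short of 2-fold.

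The promoters of 4 members are shown as examples, chosen after their values were seen: ADM and HK2 are among the 7 of 29 members that were higher after JNK inhibition, as are ALDOC and P4HA1, and LDHA and LDHB differed in share. Each is the stretch of 250 bases before the RefSeq start of the gene, from a table of GRCh38.p14, written 5′ to 3′ on the strand of the gene. Capitals mark the core of the hypoxia response element, ACGTG or GCGTG, on either strand. By exact match these stretches lie in GRCh37 at chr11:10326370-10326619 (plus strand, ADM), chr2:75061004-75061253 (plus strand, HK2), chr11:18415860-18416109 (plus strand, LDHA) and chr12:21810777-21811026 (minus strand, LDHB).
ADM: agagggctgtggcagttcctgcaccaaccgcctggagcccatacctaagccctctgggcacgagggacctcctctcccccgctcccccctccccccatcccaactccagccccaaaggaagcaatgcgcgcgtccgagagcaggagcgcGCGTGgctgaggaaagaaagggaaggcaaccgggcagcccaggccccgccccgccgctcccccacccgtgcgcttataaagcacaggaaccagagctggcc
HK2: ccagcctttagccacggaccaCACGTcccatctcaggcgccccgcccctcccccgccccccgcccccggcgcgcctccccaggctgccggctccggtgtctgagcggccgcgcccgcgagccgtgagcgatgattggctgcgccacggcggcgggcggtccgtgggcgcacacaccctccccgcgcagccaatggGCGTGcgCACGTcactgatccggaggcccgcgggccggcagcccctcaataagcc
LDHA: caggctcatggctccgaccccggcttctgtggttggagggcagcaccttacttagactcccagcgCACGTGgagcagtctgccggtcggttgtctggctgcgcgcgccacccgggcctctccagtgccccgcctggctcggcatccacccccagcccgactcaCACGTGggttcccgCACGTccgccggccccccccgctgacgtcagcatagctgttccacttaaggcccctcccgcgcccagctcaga
LDHB: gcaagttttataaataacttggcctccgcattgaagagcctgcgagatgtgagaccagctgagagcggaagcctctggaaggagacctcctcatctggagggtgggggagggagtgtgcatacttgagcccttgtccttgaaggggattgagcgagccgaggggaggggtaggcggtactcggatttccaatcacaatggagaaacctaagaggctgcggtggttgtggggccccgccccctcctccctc
ADM held 1 match that starts 101 bases before the gene, HK2 held 3 and LDHA held 5 in 3 places, since CACGTG reads as ACGTG on both strands. LDHB held 0. Neither TGACTCA nor TGAGTCA, the heptamers bound by AP-1 dimers that contain JUN, was found in these 4 stretches. Other strings that JUN dimers may bind were not searched for, and TGACGTCA, which the LDHA stretch holds, was not counted.

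Over the members, promoter stretches were found for 30 of 33, and SLC2A3, SLC16A1 and NDRG1 had none. ACGTG or GCGTG occurred in 19 of the 30, or 63.3%, and in 43.1% of all 27305 promoter stretches of the same length. ACGTG alone was in 43.3% of members and 18.7% of all promoters, and GCGTG in 36.7% and 31.9%. The member stretches were also richer in GC, with a median of 69.0% against 58.0%, and the part of GC content in these shares was not tested. Because the members were listed as genes of glycolysis and the hypoxia response, many of them HIF-1 targets, these shares do not test a link to HIF-1. An AP-1 heptamer on either strand occurred in 2 of 30 members, CA9 and ENO2, or 6.67%, and in 4.16% of all promoters. A match is a string of letters and not a bound site, and these stretches do not include enhancers.

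Around the members, 87 further genes of the pathway were followed in 7 lists, of which the filter left 61 with JUN overexpression and 69 in the JNKi table. Past 2-fold upward and downward lay 6 and 6 of them for JUN WT, 4 and 4 for JUN AA, 5 and 1 for iCAFs, and 2 and 2 for iCAFs+JNKi against iCAFs. Set directly, JUN WT was 2-fold above JUN AA at 3 and 2-fold below at 3. Their median changes were 0.28, 0.07, 0.07 and -0.06 in these comparisons with control, MRC5 and iCAFs, and 0.14 between JUN WT and JUN AA. The shares of all genes past 2-fold are those given above for each comparison. The lower counts of JUN WT and JUN AA include ARNT2, and the higher counts of iCAFs and of the inhibitor include PDK4. Each of these genes passed the filter in that table only through libraries where it was high, so its place in the counts is no independent support. Values of these 87 genes were not recomputed with the alternatives in processing given at the end. How far their counts past 2-fold depend on scaling is therefore unknown.

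In the oxygen-sensing system, changes past 2-fold lay at transcription factor genes and not at the hydroxylases EGLN1, EGLN2 and HIF1AN or at VHL. HIF1A mRNA was at 90.4 FPKM for MRC5, 253 for iCAFs and 206 for iCAFs+JNKi, a change of 1.47 in iCAFs, and at 20.6, 35.9 and 26.7 FPKM in control, JUN WT and JUN AA. EPAS1, which encodes HIF-2 alpha, was at 132 FPKM for MRC5, 148 for iCAFs and 307 for iCAFs+JNKi, a change of 1.04 with the inhibitor, and at 55.7, 42.8 and 21.4 FPKM with JUN, a change of -1.34 in JUN AA. Thus HIF1A was highest in iCAFs and EPAS1 was highest after JNK inhibition. ARNT2, a partner of both, was at 9.63 FPKM for MRC5, 3.32 for iCAFs and 6.74 for iCAFs+JNKi, a change of -1.30 in iCAFs. With JUN it was at 3.66, 0.70 and 0.95 FPKM, and it passed the filter there through the control library. EGLN1, the main HIF prolyl hydroxylase, stayed between 6.70 and 7.65 FPKM in the JNKi table and between 1.82 and 2.16 FPKM with JUN, and VHL, which recognizes hydroxylated HIF, between 10.4 and 14.9 FPKM and between 4.50 and 6.23 FPKM. HIF1A is controlled mostly through its protein, which RNA does not measure.

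Of the other hypoxia-response genes, 3 were at least 2-fold higher in iCAFs, a size that 0 of the members reached. PLOD2, a collagen lysyl hydroxylase, was at 23.0 FPKM for MRC5, 104 for iCAFs and 45.3 for iCAFs+JNKi. ANGPTL4, a secreted inhibitor of lipoprotein lipase, was at 6.10, 30.3 and 9.96 FPKM in these libraries. STC2, a secreted glycoprotein, was at 53.0, 109 and 67.3 FPKM. Their changes in iCAFs were 2.13, 2.14 and 1.02, and with the inhibitor -1.18, -1.51 and -0.68. The iCAF library was highest at all 3, and STC2 did not pass 2-fold with the inhibitor. These 3 genes were picked by their rise in iCAFs, and both changes use the same iCAF library, so the second is not independent of the choice. They were 3 of 20 measured genes of the list, whose lowest was BHLHE41 at -0.78 in iCAFs and whose highest after the inhibitor was LOX at 0.71. The median of the list was 0.22 in iCAFs and -0.15 after the inhibitor.

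In the JUN overexpression table the same list split in both directions. STC2 was at 10.1 FPKM for control, 43.9 for JUN WT and 10.1 for JUN AA, and LOX, a collagen cross-linking oxidase, at 51.1, 160 and 91.3 FPKM, changes of 2.01 and 1.63 in JUN WT. DDIT4, an inhibitor of mTORC1, was at 61.9, 26.5 and 60.3 FPKM, the histone demethylase gene KDM4B at 17.6, 6.88 and 10.6 FPKM, and the repressor gene BHLHE40 at 9.85, 4.02 and 5.83 FPKM. These 3 were at least 2-fold lower in JUN WT and not in JUN AA, with changes of -1.19, -1.24 and -1.11 in the former and -0.04, -0.69 and -0.67 in the latter. In JUN AA, FAM162A, a mitochondrial HIF-1 target, was at 45.9 FPKM against 12.6 FPKM in control and 18.2 FPKM in JUN WT, a change of 1.79. PLOD1 was at 231, 151 and 113 FPKM, a change of -1.03 in JUN AA. ANGPTL4 and INSIG2, both under 5 FPKM on average, changed by -1.32 and 1.06 in JUN AA. Between JUN WT and JUN AA, STC2 differed by 2.02, ANGPTL4 by 1.93, DDIT4 by -1.16 and FAM162A by -1.29.

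Of the genes of pyruvate entry and oxidation, 8 of 9 measured lay above control in JUN WT, 4 of them past 2-fold, with a list median of 0.98 against 0.15 for all genes. In JUN AA also 8 of 9 lay above control, 1 of them past 2-fold, with a list median of 0.33 against -0.02 for all genes. Of all genes, 39.1% lay below control in JUN WT and 51.4% did so in JUN AA. MPC1, a subunit of the mitochondrial pyruvate carrier, was at 6.09 FPKM for control, 23.9 for JUN WT and 15.1 for JUN AA, and its partner MPC2 at 37.3, 79.3 and 69.0 FPKM. PDHA1 and DLD, subunits of pyruvate dehydrogenase, were at 5.98, 14.5 and 9.76 FPKM and at 5.45, 13.4 and 11.6 FPKM. The changes in JUN WT were 1.81, 1.07, 1.15 and 1.16, and in JUN AA 1.18 for MPC1 and below 1 for the other 3. PDK2 was the 1 gene of this list below control in JUN WT, at 17.9, 8.52 and 14.9 FPKM. In iCAFs this list had a median of -0.19 with MPC1 lowest at -0.52, and after the inhibitor PDP1 was lowest at -0.65. PDK4, the kinase induced by fasting and fatty acids, was at 0.085 FPKM for MRC5, 6.0 for iCAFs and 24.6 for iCAFs+JNKi, changes of 2.69 and 1.87. It passed the filter there through the iCAFs and iCAFs+JNKi libraries, and was under 0.5 FPKM in all 3 JUN overexpression libraries.

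The remaining lists held fewer changes. Of glycolytic and gluconeogenic isoenzymes, PCK2, the mitochondrial phosphoenolpyruvate carboxykinase, was at 50.4 FPKM for control, 13.9 for JUN WT and 28.9 for JUN AA, a change of -1.79 in JUN WT, and BPGM was the highest of that list in JUN WT, JUN AA and iCAFs, by 0.62, 0.86 and 0.75. PFKFB2 was its lowest in iCAFs, by -0.80, and its highest with the inhibitor, by 0.70. Between JUN WT and JUN AA, PCK2 was the lowest of the list at -1.01 and ADPGK the highest at 0.76. In the glycogen list, PYGB was at 87.0, 39.0 and 63.0 FPKM with a change of -1.14 in JUN WT, and UGP2 at 14.4, 21.1 and 38.3 FPKM with a change of 1.36 in JUN AA. After JNK inhibition 9 of 9 glycogen genes were lower, against 62.6% of all genes, and none by 2-fold. The median of these glycogen genes was -0.45, against -0.10 for all genes, and the lowest was PGM2 at -0.71. PYGL was the highest of the list in JUN WT at 0.97 and PPP1R3C was the highest in iCAFs at 0.85. The pentose phosphate pathway held 0 genes past 2-fold in JUN WT, JUN AA, iCAFs and iCAFs+JNKi, with extremes of -0.57 for TKT and 0.78 for RPE in JUN WT, and 1 gene, RPIA, 2-fold higher in JUN WT than in JUN AA. RPIA was the lowest of its list in JUN AA at -0.52 and the highest in iCAFs at 0.21, and PGD was the lowest after the inhibitor at -0.28. Of the other carriers, BSG, the chaperone of MCT1 and MCT4, was at 627, 421 and 367 FPKM in control, JUN WT and JUN AA, changes of -0.57 and -0.77, and SLC2A6 was highest in iCAFs by 0.57 over MRC5 and differed by -0.57 with the inhibitor, where SLC2A10 was the highest carrier at 0.47.

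**Figure D5:**
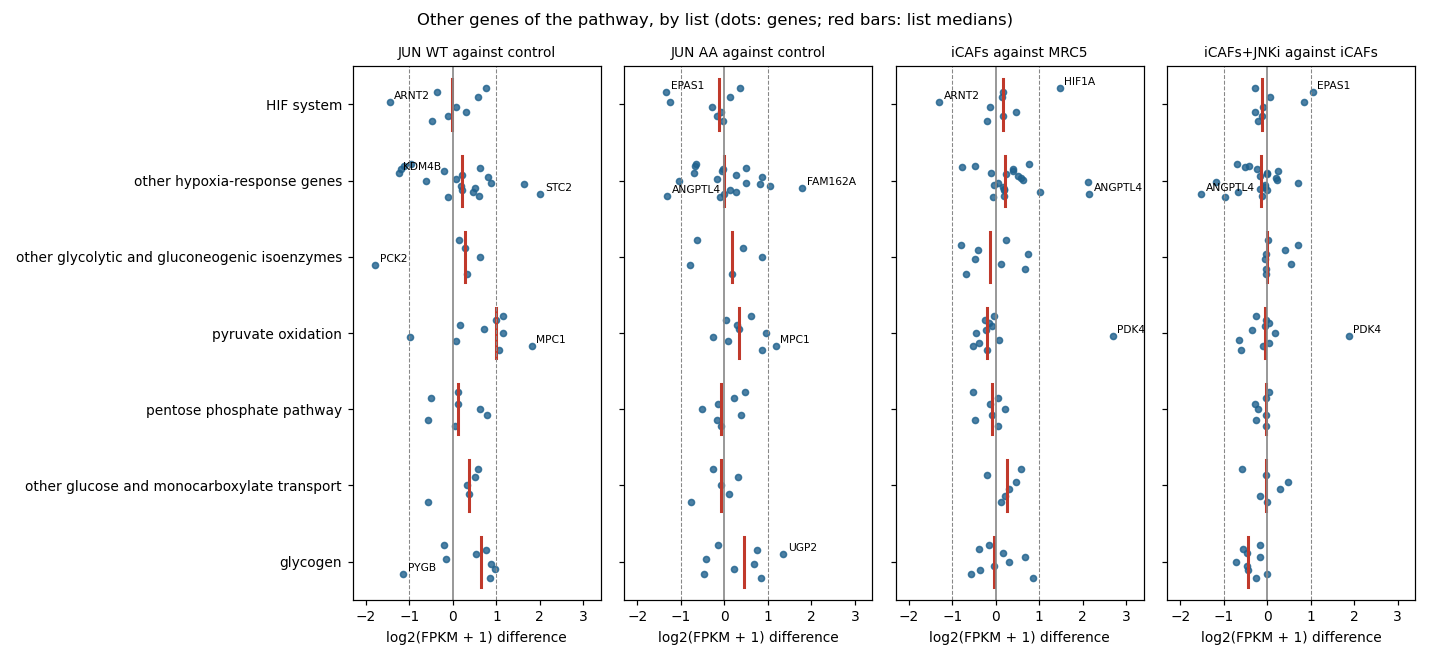
Change of the other genes of the pathway in 4 comparisons, as log2(FPKM + 1) differences, with 1 dot per gene passing the filter, red bars for list medians, dashed lines at 2-fold and names for the extremes past it. The pyruvate oxidation list has its median at 0.98 in JUN WT, and HIF1A, PLOD2 and ANGPTL4 lie to the right in iCAFs.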

How the data were processed

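Conditions came from the sample labels and every column of both tables was matched to its library by name. The authors mapped reads to hg19 with HISAT2 2.1.0 and deposited FPKM per gene from StringTie 2.1.1. FPKM scale each gene by exon length and by mapped fragments. The annotation, strand setting and read number are not given in the sources used here, and low values showed no common step in the JUN overexpression table, so no depth or interval is printed. Reads shared with pseudogenes or overlapping genes may be divided in ways that change single values.

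The 33 members and the other lists were chosen with earlier results of these data known. From the deposited FPKM, log2(FPKM + 1) differences were computed within a table keeping genes that averaged 1 FPKM or more over its 3 libraries, in Python 3.11.15 with numpy 2.4.6 and pandas 2.3.3. No test was possible with 1 library per condition. Where 4 rows share symbols the higher row was used, and 28 rows carry date-like names. All members were to be named, with genes of the other lists that changed 2-fold at a mean of at least 5 FPKM, the extremes of each list, and HIF1A, EPAS1, EGLN1 and VHL. INSIG2 lies outside this rule and was added after its values were seen. Extremes of a list under 2-fold are given in part, and some genes of these lists are not reported here. Positions, transcript lengths and GC content are those of GENCODE on GRCh37, and promoters from RefSeq. The computation was tested on simulated data. The alternatives were a pseudocount of 0.1, no filter, a filter of 5 FPKM, rescaling each library to a sum of 1000000, centring on the median gene, and trends with length and GC content removed in 20 bins. Figures were drawn with matplotlib 3.10.9.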

Additional observations from a re-analysis of the deposited data

How the results depend on the processing

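Counts and medians of the members in iCAFs and after JNK inhibition kept their direction in 6 alternatives: 0 and 0 members past 2-fold in iCAFs, and ADM as the 1 member 2-fold higher with 0 lower after the inhibitor, where the median lay between -0.37 and -0.22 and 20 to 24 members were lower. In JUN WT against control, 2 members were higher with a pseudocount of 0.1 (PDK1 and SLC16A1) and 0 with changes centred on the median gene or with trends of length and GC content removed, both of which gave 2 lower. In JUN AA against control, the median was -0.35 after rescaling and turned to 0.072 after trend removal, and the lower members numbered 3 with a pseudocount of 0.1, 4 after rescaling and 0 after trend removal. In JUN WT against JUN AA, the median was 0.38 after rescaling, and turned to -0.10 with centring and -0.25 after trend removal. Higher members there numbered 2 with a pseudocount of 0.1 and 7 after rescaling, and lower members 0 after rescaling, 5 with centring and 4 after trend removal. The cause of these shifts was not tested. Of all genes, 714 were 2-fold higher and 350 lower in JUN WT, or 436 and 522 with centring. In JUN AA they were 545 and 389, or 338 and 957 after rescaling. Between JUN WT and JUN AA they were 686 and 578, or 1770 and 364 after rescaling. After the inhibitor they were 265 and 232, or 411 and 244 after rescaling. Of 879 recomputed values of single members, 789 moved by at most 0.25, 90 moved by more, and 0 of those past 2-fold turned sign. Only changes past 2-fold were checked for a turned sign, and some smaller ones did turn. SLC2A3 in JUN WT went from 0.14 to -0.35 after trend removal, and GPI in JUN AA from 0.17 to -0.14 after rescaling. No paired analysis was possible because each condition has 1 library. Without replicates or read counts, the error of single values is unknown, and the smallest differences cannot be told from it.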
